A study of Mus musculus with 22 samples.

Results

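Genes of the cell cycle and of DNA replication were followed across 22 mouse tumours of the oral buccal mucosa, the lining of the cheek. The set holds 35 genes chosen by symbol, and all 35 were found among the 56748 gene IDs of each count table and passed the filter on low counts that left 19202 genes. By role, 10 of them make or copy DNA (Mcm2 to Mcm7, Pcna, Tyms, Rrm1 and Rrm2), 5 control the step from G1 into S phase (Ccnd1, Ccne1, Ccne2, Cdk2 and E2f1), 19 act in G2 and mitosis, and 1, Cdkn2a, encodes the inhibitors INK4a and ARF. The 19 mitotic genes are the cyclins Ccna2, Ccnb1 and Ccnb2 with their kinase Cdk1 and its activator Cdc25c, the kinases Aurka, Aurkb and Plk1, the spindle checkpoint genes Bub1 and Bub1b, Cdc20 and Ube2c of the anaphase-promoting complex pathway, the spindle genes Kif11 and Tpx2, and Birc5, Cenpf, Top2a, Foxm1 and Mki67.

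Bulk RNA-seq was done on 5 Keap1-deleted BAP, 5 Keap1-deleted untreated, 6 Keap1-wildtype BAP and 6 Keap1-wildtype untreated tumours. All 4 groups carried Krt5CreER-T2/+, Trp53fl/fl and the Rosa26LSL-PIK3CA(H1047R) transgene on both alleles, and the Keap1-deleted groups carried Keap1fl/fl in addition, so the Trp53 and PIK3CA alleles are shared by every tumour; their recombination was not checked here. Recombination was by a tamoxifen-inducible Cre recombinase driven by the Krt5 promoter, which is active in basal keratinocytes, after local injection of 4-hydroxytamoxifen. BAP tumours also received BAP, short for benzo[a]pyrene, a tobacco smoke carcinogen, at that step, and tumours without it are called untreated here. The labels give no age or sex and do not say that tumours are from different animals, so the p-values below measure the spread between these samples. KEAP1 is the adaptor that marks the transcription factor NRF2 for degradation, and the series was made to study this pathway in radioresistance and in the tumour immune microenvironment.

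A cell enters S phase when cyclin D and cyclin E kinases inactivate the Rb family and so release E2F factors, which switch on the replication genes. INK4a blocks the cyclin D kinases and ARF stabilises p53, and E2F activity is among the inputs that raise Cdkn2a. Mitotic genes peak later, in G2 and M, and are repressed in resting cells by the DREAM complex, which acts through promoter elements named CHR (cell cycle genes homology region) and CCAAT boxes bound by NF-Y. In stratified epithelium division is normally kept to the basal layer.

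Total counts per library were 29235010 to 39784402 in Keap1-deleted BAP, 32000650 to 39862777 in Keap1-deleted untreated, 30579115 to 36087574 in Keap1-wildtype BAP and 29602879 to 38345425 in Keap1-wildtype untreated tumours. Levels are CPM, counts scaled to a common library size, after TMM scaling, which sets libraries on the level of the bulk of genes. Keap1 averaged 30.4 ± 21.9 CPM in Keap1-deleted BAP and 28.9 ± 5.96 in Keap1-deleted untreated tumours (SD, n = 5 each), against 58.1 ± 4.22 in Keap1-wildtype BAP and 57.1 ± 12.1 in Keap1-wildtype untreated tumours (SD, n = 6 each). In the library labelled Keap1-deleted BAP 2 the Keap1 level, 65.6 CPM, was as high as in wildtype tumours, although gene counts include exons outside the deleted part. Markers of the labelled squamous identity were low in part of the tumours. The summed level of 10 basal keratinocyte markers was 180 to 1749 CPM in Keap1-deleted BAP and 2272 to 27840 in Keap1-deleted untreated tumours, against 26800 to 62890 in Keap1-wildtype BAP and 1299 to 47690 in Keap1-wildtype untreated tumours, and none of the 10 was at 0 in any group. The lowest value of the wildtype tumours was that of Keap1-wildtype untreated 6.

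Promoters of 8 members that the results below describe are shown, to set the sequence of mitotic, replication and G1/S genes side by side, with matches of 3 motifs known from the promoters of cell cycle genes. They are RefSeq sequences of GRCm38.p6, read 5′ to 3′ on the gene's strand from 250 bases before to 50 after the start, and capitals mark motif matches on either strand. The CHR was searched as TTTGAA. The CCAAT box was searched by its own 5 letters. The E2F motif was searched in 4 forms, of which the first was TTCCCGC, while another form was TTGGCGC, a further form was TTCGCGC, and the last form was TTGCCGC.
Mki67, chr7:135716330-135716629, minus strand: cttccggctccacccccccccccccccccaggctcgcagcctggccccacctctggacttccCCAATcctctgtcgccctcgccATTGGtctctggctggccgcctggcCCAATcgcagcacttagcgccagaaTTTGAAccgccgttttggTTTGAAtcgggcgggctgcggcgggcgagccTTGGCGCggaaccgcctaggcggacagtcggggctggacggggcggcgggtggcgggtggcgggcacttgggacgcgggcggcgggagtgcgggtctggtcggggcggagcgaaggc
Kif11, chr19:37376132-37376431, plus strand: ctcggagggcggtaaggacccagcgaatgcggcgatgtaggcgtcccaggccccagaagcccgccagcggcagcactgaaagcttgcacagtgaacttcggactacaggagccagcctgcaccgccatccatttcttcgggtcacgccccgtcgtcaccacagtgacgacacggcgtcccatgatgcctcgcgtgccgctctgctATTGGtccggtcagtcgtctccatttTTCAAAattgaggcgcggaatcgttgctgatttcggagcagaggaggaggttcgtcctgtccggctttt
Top2a, chr11:99024140-99024439, minus strand: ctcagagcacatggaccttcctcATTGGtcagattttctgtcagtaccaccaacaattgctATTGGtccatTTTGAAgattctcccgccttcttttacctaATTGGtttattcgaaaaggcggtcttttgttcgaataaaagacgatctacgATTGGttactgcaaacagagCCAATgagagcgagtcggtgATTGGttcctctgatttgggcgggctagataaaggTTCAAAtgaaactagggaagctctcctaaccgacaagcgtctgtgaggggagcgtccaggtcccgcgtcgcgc
Cdk1, chr10:69352863-69353162, minus strand: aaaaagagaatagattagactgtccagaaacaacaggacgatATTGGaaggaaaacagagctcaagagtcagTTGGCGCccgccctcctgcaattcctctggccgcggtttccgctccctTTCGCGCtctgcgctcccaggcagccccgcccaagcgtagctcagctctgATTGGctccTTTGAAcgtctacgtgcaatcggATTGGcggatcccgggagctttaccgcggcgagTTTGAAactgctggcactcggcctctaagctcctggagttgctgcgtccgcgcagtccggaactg
Mcm5, chr8:75109259-75109558, plus strand: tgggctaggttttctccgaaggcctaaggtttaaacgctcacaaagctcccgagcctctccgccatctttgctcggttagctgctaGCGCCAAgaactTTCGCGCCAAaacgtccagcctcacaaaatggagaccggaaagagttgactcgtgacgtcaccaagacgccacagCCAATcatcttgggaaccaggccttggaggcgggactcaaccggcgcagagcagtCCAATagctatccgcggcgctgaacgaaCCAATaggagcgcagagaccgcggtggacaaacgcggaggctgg
Rrm1, chr7:102441445-102441744, plus strand: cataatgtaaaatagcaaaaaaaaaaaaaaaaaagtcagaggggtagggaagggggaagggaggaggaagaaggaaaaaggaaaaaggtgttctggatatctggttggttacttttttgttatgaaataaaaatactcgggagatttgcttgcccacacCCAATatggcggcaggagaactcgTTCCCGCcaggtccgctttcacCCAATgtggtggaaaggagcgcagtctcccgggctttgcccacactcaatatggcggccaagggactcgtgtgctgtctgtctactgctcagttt
E2f1, chr2:154569377-154569676, minus strand: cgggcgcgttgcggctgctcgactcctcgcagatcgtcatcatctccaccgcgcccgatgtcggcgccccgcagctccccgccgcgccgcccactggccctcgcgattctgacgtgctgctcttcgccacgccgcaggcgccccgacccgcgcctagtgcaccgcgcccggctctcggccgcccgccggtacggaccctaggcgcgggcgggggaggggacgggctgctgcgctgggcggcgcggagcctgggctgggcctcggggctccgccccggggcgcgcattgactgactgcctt
Cdkn2a, downstream start, chr4:89282143-89282442, minus strand: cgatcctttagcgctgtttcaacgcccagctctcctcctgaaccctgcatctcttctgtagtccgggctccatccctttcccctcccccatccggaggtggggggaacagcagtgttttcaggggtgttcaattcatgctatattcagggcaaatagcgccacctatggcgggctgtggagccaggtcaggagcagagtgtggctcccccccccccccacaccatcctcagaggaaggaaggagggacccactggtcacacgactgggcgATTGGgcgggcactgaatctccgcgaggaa
Cdkn2a, upstream start, chr4:89294570-89294869, minus strand: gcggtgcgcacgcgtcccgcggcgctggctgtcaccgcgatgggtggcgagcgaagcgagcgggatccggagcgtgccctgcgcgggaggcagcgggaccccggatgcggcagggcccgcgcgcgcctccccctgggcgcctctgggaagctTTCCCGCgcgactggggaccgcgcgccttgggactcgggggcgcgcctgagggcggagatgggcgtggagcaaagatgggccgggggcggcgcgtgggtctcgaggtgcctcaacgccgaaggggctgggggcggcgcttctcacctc
In these windows Mki67, Top2a and Cdk1 each hold 2 CHR matches and Kif11 holds 1, and all 4 also hold a CCAAT box. The promoters of Mcm5 and Rrm1 hold no CHR but 3 and 1 E2F matches. In Mcm5, 2 of the E2F matches share bases, and no match of 1 motif overlaps one of another motif in the promoters printed here. At Cdkn2a the upstream start, from which ARF is made, holds 1 E2F match, while the downstream start, from which INK4a is made, holds 1 CCAAT box. E2f1 holds no match of the 3 motifs, and nor do Birc5, Ccne1 and Tyms, which are not shown. This says only that these letters are not in their windows. In the GENCODE M21 annotation the E2f1 gene starts at 154569892 on the minus strand, upstream of the printed window. That window therefore lies inside the gene, and the bases before this start were not searched.

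The RefSeq table held a promoter for 27 of the 35 members; Ccna2, Ccnd1, Ccne2, Cdc25c, Aurkb, Foxm1, Mcm4 and Tpx2 are named only. A CHR was present in 11 of 14 mitotic members (78.6%) and 1 of 9 replication members (11.1%), against 17.9% of all 32851 promoters in the table. The E2F motif was present in 3 of 14 mitotic (21.4%) and 6 of 9 replication members (66.7%), against 9.57% of all promoters. CCAAT boxes were common in both classes, with 13 of 14 mitotic (92.9%) and 8 of 9 replication members (88.9%), against 37.4% of all promoters. These are matches of letters and not shown binding sites.

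Most calls came from the comparison of Keap1-deleted BAP with Keap1-wildtype BAP tumours. There 13 of the 35 genes passed the test (edgeR's quasi-likelihood F test, Benjamini-Hochberg adjusted p under 0.05 over all 19202 genes), 3 of them higher and 10 lower in Keap1-deleted BAP tumours. Cdkn2a, the G1/S factor E2f1 and cyclin E2 (Ccne2) were higher, and the proliferation marker Mki67, cyclin E1 (Ccne1), 2 replication genes and 6 further mitotic genes were lower. That share of 37.1% stands beside 40.3% of all genes called in this comparison, in which 20.3% were higher and 20.0% lower. Among the 35 genes 8.57% were higher and 28.6% lower. Their median log2 fold change was -0.18, against -0.00124 over all genes. In bulk tissue fewer cells of a type and less RNA per cell cannot be told apart.

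**Figure D1:**
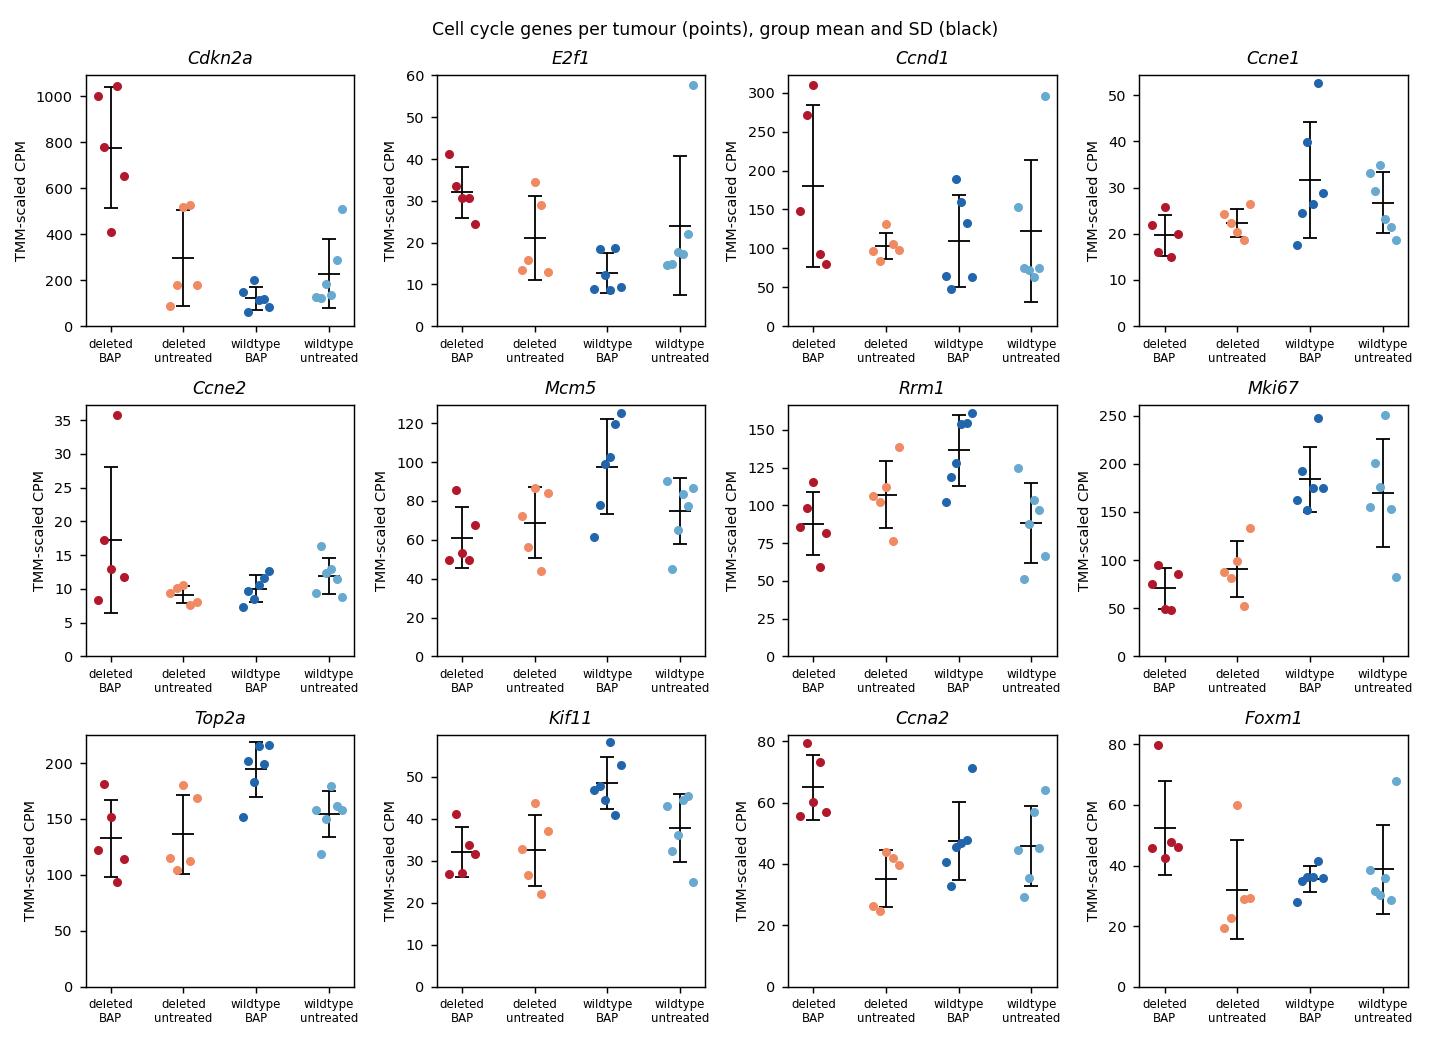
TMM-scaled CPM of 12 genes (y axis of each panel, CPM) in each of the 22 tumours (points), by group from left to right (Keap1-deleted BAP, Keap1-deleted untreated, Keap1-wildtype BAP, Keap1-wildtype untreated), with the mean and SD. Cdkn2a sits at 408 to 1045 CPM in Keap1-deleted BAP tumours, above all Keap1-wildtype BAP tumours, and Mki67 at 48.0 to 94.5 CPM, below all of them.

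Cdkn2a (ENSMUSG00000044303, GRCm38 chr4:89274471-89294653, minus strand) had the largest change of the set in this comparison. Its level was 1000, 779, 408, 1045 and 652 CPM in Keap1-deleted BAP tumours 1 to 5, against a lowest, median and highest level of 63.3, 117 and 201 CPM in the 6 Keap1-wildtype BAP tumours. Every Keap1-deleted BAP tumour lay above every Keap1-wildtype BAP tumour. The log2 fold change was 2.68 (SE 0.47, adjusted p = 0.000453 by edgeR), 6.40-fold. It passed in all 11 fits that left out 1 compared library, with log2 fold changes of 2.55 to 2.88. Gene counts do not separate INK4a from ARF transcripts.

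Among the 5 genes of G1/S control the called members moved in both directions. E2f1 (ENSMUSG00000027490, chr2:154559407-154569892), the activating E2F factor, was at 41.2, 33.5, 30.6, 30.8 and 24.4 CPM in Keap1-deleted BAP tumours 1 to 5, against a lowest, median and highest level of 8.67, 10.8 and 18.8 CPM in Keap1-wildtype BAP tumours. The groups did not overlap. E2f1 was 2.52-fold higher (log2 1.33, SE 0.36, adjusted p = 0.00652 by edgeR) and passed in all 11 fits without 1 library. The count ratio of E2f1 to Pcna was 0.371 and 0.415 in Keap1-deleted untreated 3 and 4, and 0.738 in Keap1-wildtype untreated 6. These were the untreated tumours lowest in basal keratinocyte markers. The ratio was 0.134 to 0.218 in the other untreated tumours and 0.194 to 0.402 in Keap1-deleted BAP tumours. It was chosen after its values were seen, and the part of cell composition in E2f1 was not tested.

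The E cyclins, which activate Cdk2 at the start of S phase, split. Ccne2 was at 8.33, 17.2, 13.0, 35.8 and 11.8 CPM in Keap1-deleted BAP tumours 1 to 5, against 7.25, 10.1 and 12.7 CPM (lowest, median and highest) in Keap1-wildtype BAP tumours. Its log2 fold change was 0.78 (SE 0.29, adjusted p = 0.0354 by edgeR), but the ranges overlapped, Keap1-deleted BAP 4 stood far above the rest, and without that tumour the value was 0.33 with an adjusted p of 0.291; it was also lost without any 1 of 5 other libraries (Keap1-deleted BAP 2 and Keap1-wildtype BAP 1, 2, 3 and 4). Ccne1 was at 21.9, 15.97, 25.8, 15.0 and 19.9 CPM in Keap1-deleted BAP tumours, against 17.6, 27.6 and 52.6 CPM in Keap1-wildtype BAP tumours. It fell by 0.68 on the log2 scale (SE 0.24, adjusted p = 0.0296 by edgeR), also with overlapping ranges, and was lost without Keap1-wildtype BAP 3 or 5 or without Keap1-deleted BAP 2, 4 or 5. Ccnd1, the cyclin D1 gene, spread widely in both groups, with 149, 271, 310, 93.0 and 79.6 CPM in Keap1-deleted BAP tumours, against 47.3, 98.5 and 189 CPM in Keap1-wildtype BAP tumours. It did not pass (log2 0.72, SE 0.45, adjusted p = 0.205), nor did Cdk2 (log2 -0.15).

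Of the 19 mitotic genes 7 fell (36.8%, against 20.0% of all genes) and none rose. A negative value was found for 13 of 19 (7 of 19 with library totals as the only scaling, described below). The median log2 fold change of the mitotic genes was -0.27. Mki67 (ENSMUSG00000031004, chr7:135689784-135716361, minus strand), which encodes the Ki-67 protein that coats mitotic chromosomes and marks cycling cells, was at 75.6, 94.5, 49.7, 48.0 and 85.2 CPM in Keap1-deleted BAP tumours 1 to 5, against 152, 175 and 247 CPM (lowest, median and highest) in Keap1-wildtype BAP tumours. The groups did not overlap, and the lowest Keap1-wildtype BAP tumour was well above the highest Keap1-deleted BAP tumour. Mki67 was 2.60-fold lower (log2 -1.38, SE 0.27, adjusted p = 0.000702 by edgeR) and passed in all 11 fits without 1 library, with values of -1.51 to -1.27.

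The next 3 mitotic genes changed less. Kif11 (chr19:37376403-37421859), the motor that separates the spindle poles, was at 26.9, 41.2, 26.9, 33.7 and 31.5 CPM in Keap1-deleted BAP tumours, against 40.8, 47.3 and 58.1 CPM in Keap1-wildtype BAP tumours. The 2 ranges met only at the edge, between Keap1-deleted BAP 2 and the lowest Keap1-wildtype BAP tumour. Kif11 fell by 0.59 on the log2 scale (SE 0.19, adjusted p = 0.0165 by edgeR) and passed in all 11 fits without 1 library. Top2a, the topoisomerase that untangles sister chromatids, was at 123, 181, 151, 93.5 and 114 CPM in Keap1-deleted BAP tumours, against 151, 201 and 216 CPM in Keap1-wildtype BAP tumours. It fell by 0.55 (SE 0.19, adjusted p = 0.0225 by edgeR), a call that was lost without Keap1-wildtype BAP 6 or Keap1-deleted BAP 1, 4 or 5. Birc5, which encodes survivin of the chromosomal passenger complex, was at 44.8, 40.6, 34.3, 34.4 and 42.4 CPM in Keap1-deleted BAP tumours, against 40.9, 53.3 and 81.4 CPM in Keap1-wildtype BAP tumours. It fell by 0.54 (SE 0.18, adjusted p = 0.0241 by edgeR), with overlapping ranges, and the call was lost without Keap1-wildtype BAP 5 or 6 or Keap1-deleted BAP 3 or 4.

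The polo kinase gene Plk1 (log2 -0.69, adjusted p = 0.0336) and 2 genes of the anaphase-promoting complex pathway, Cdc20 (log2 -0.76, adjusted p = 0.0393) and Ube2c (log2 -0.64, adjusted p = 0.0456), also fell by edgeR, but stayed called in 5, 4 and 2 of the 11 fits without 1 library. All 3 calls were lost without any 1 of Keap1-wildtype BAP 4, 5 and 6 and Keap1-deleted BAP 3, 4 and 5, that of Cdc20 also without Keap1-deleted BAP 1, and that of Ube2c also without Keap1-wildtype BAP 2 or 3 or Keap1-deleted BAP 2. The other 12 mitotic genes did not pass. The values of Ccnb1, Ccnb2, Cdk1, Cdc25c, Bub1, Bub1b, Aurka, Aurkb, Cenpf and Tpx2 ran between -0.35 (Cenpf) and 0.37 (Bub1) on the log2 scale, and Ccna2 had 0.45 (adjusted p = 0.106). Foxm1, the transcription factor that drives mitotic genes, was at 45.9, 79.9, 42.6, 47.8 and 46.1 CPM in Keap1-deleted BAP tumours, against 28.1, 36.0 and 41.6 CPM in Keap1-wildtype BAP tumours. Its ranges were apart, with all Keap1-deleted BAP tumours higher, yet it did not pass (log2 0.56, SE 0.27, adjusted p = 0.0979 by edgeR). Ranges were apart for 4 of the 35 genes, Cdkn2a, E2f1, Mki67 and Foxm1, against 27.5% of all genes.

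Among the 10 replication genes 2 fell (20.0%, the same as the 20.0% of all genes called lower) and none rose. Their median log2 fold change was -0.22. Mcm5, a subunit of the replicative helicase, was at 49.6, 85.7, 53.2, 49.5 and 67.4 CPM in Keap1-deleted BAP tumours, against 61.6, 101 and 126 CPM in Keap1-wildtype BAP tumours. It fell by 0.68 on the log2 scale (SE 0.23, adjusted p = 0.0234 by edgeR). Rrm1, the large subunit of ribonucleotide reductase, was at 85.5, 98.1, 115, 59.4 and 81.9 CPM in Keap1-deleted BAP tumours, against 102, 141 and 161 CPM in Keap1-wildtype BAP tumours. It fell by 0.63 (SE 0.22, adjusted p = 0.0248 by edgeR). Both genes had overlapping ranges. The Mcm5 call was lost without Keap1-wildtype BAP 5 or 6 or Keap1-deleted BAP 1, 3 or 4, and the Rrm1 call without Keap1-wildtype BAP 6 or Keap1-deleted BAP 4 or 5. The other helicase subunits were uneven, with log2 values of 0.06 for Mcm2, -0.25 for Mcm3, -0.53 for Mcm4, 0.23 for Mcm6 and -0.27 for Mcm7. Pcna, the sliding clamp, was at 0.02, and Tyms and Rrm2, which make thymidylate and deoxynucleotides, at 0.15 and -0.20, none of them called.

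These directions depend in part on scaling. TMM factors were 1.107 to 1.277 in Keap1-deleted BAP and 0.7793 to 0.9707 in Keap1-wildtype BAP libraries. With library totals as the only scaling the median of all genes moved to 0.44 and that of the 35 genes to 0.28, 73.4% of all calls were higher against 50.3% with TMM, and 11 of the 35 genes were called, 10 higher and 1 lower. The call shared for a lower level was Mki67 (log2 -0.95, adjusted p = 0.00517 by edgeR), and Cdkn2a, E2f1 and Ccne2 stayed higher. The falls of Kif11, Top2a, Mcm5, Rrm1, Birc5, Plk1, Cdc20, Ube2c and Ccne1 are therefore falls relative to the bulk of genes, and none of the 9 passed with library totals. Ccna2, Foxm1, Bub1, Ccnd1, Mcm6, Pcna and Tyms were called higher with that scaling and not with TMM in the fit of all libraries; Ccna2 and Foxm1 also passed with limma-voom and with only the compared groups in the fit, and Ccna2 without Keap1-wildtype BAP 6. Without Keap1-deleted BAP 4 the TMM fit called 4 genes, Cdkn2a, E2f1, Mki67 and Kif11. The share of all genes called in that fit and with library totals is not given here. The change in these counts is therefore not shown to be particular to the 35 genes.

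**Figure D2:**
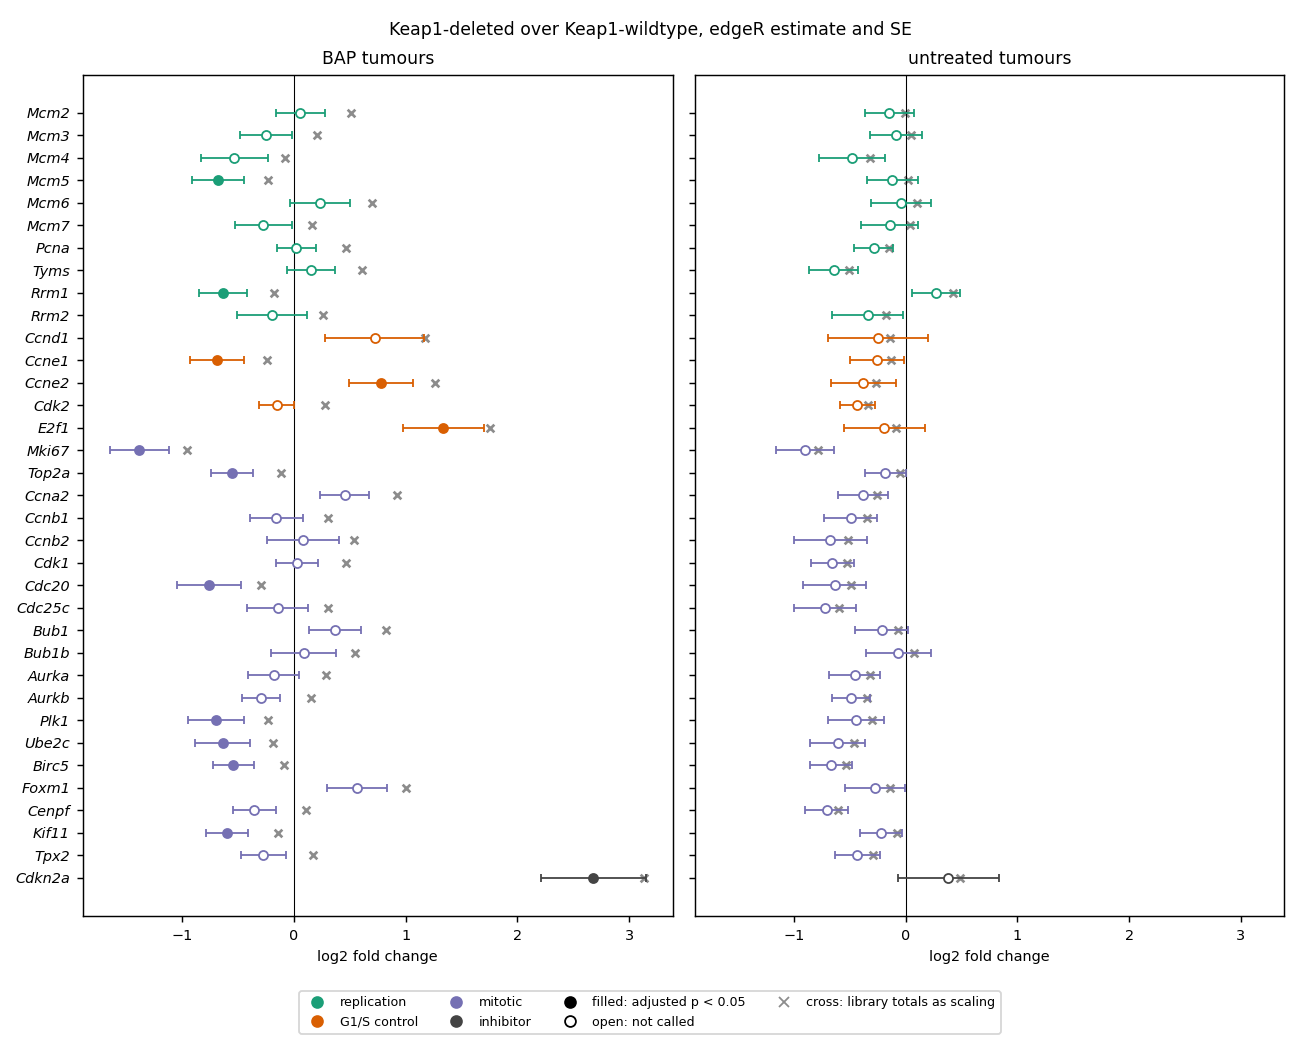
Log2 fold change of each of the 35 genes with its SE (x axis, log2), Keap1-deleted over Keap1-wildtype, in BAP tumours (left) and in untreated tumours (right); filled points passed the test and grey crosses give the value with library totals as the only scaling. In BAP tumours Cdkn2a lies at 2.68 and Mki67 at -1.38, and in untreated tumours no gene passed while all 19 mitotic genes lie below 0 with TMM scaling and 18 with library totals.

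Markers of other cells moved with the same comparison. Of the 10 basal and 10 differentiated keratinocyte markers 9 and 10 were called lower in Keap1-deleted BAP tumours, and all 10 fibroblast and all 10 macrophage markers and 9 of 10 skeletal muscle markers were called higher. The summed fibroblast markers were 12750 to 42880 CPM in Keap1-deleted BAP tumours, against 1024 to 2398 CPM in Keap1-wildtype BAP tumours, and the summed macrophage markers 1781 to 3863 CPM in Keap1-deleted BAP tumours, against 91.4 to 217 CPM in Keap1-wildtype BAP tumours. The part of these cells in the gene levels above was not tested.

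Ratios of counts within a library do not depend on scaling. The ratio of Mki67 to Foxm1 averaged 1.37 ± 0.36 in Keap1-deleted BAP (range 1.004 to 1.85, SD, n = 5) and 5.18 ± 0.67 in Keap1-wildtype BAP tumours (range 4.18 to 5.94, SD, n = 6). It averaged 3.25 ± 1.44 in Keap1-deleted untreated tumours (range 1.65 to 4.58, n = 5). In Keap1-wildtype untreated tumours it averaged 4.97 ± 2.10 (range 1.21 to 7.02, n = 6). The ratio of Mki67 to Ccna2, the S and G2 cyclin gene, was 0.656 to 1.49 in Keap1-deleted BAP and 2.45 to 5.86 in Keap1-wildtype BAP tumours. That of Mki67 to Cdk1, the mitotic kinase gene, was 0.709 to 1.20 in Keap1-deleted BAP and 1.81 to 2.93 in Keap1-wildtype BAP tumours. For these 3 ratios the ranges of the 2 BAP groups were apart. Keap1-wildtype untreated 6, low in basal keratinocyte markers, lay within the Keap1-deleted BAP range of all 3, at 1.21, 1.285 and 1.13. Its Mki67 share of the summed mitotic count, 7.41%, also lay within the Keap1-deleted BAP range of 5.28% to 9.24%. Mki67 made up 7.15% ± 1.52 of the summed count of the 19 mitotic genes in Keap1-deleted BAP and 11.01% ± 1.72 in Keap1-deleted untreated tumours (SD, n = 5 each), against 14.5% ± 2.82 in Keap1-wildtype BAP and 14.9% ± 5.05 in Keap1-wildtype untreated tumours (SD, n = 6 each). The pairs were chosen after their values were seen and have no test.

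**Figure D3:**
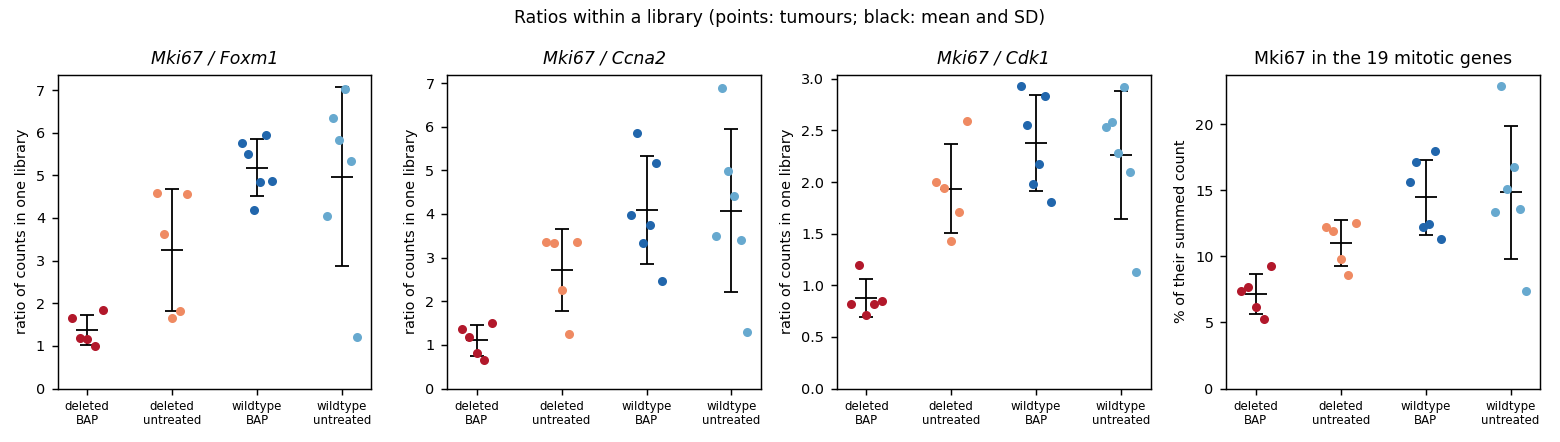
Count ratios of Mki67 to Foxm1, Ccna2 and Cdk1, and Mki67 as a percentage of the summed count of the 19 mitotic genes (y axes), in each tumour (points) by group with the mean and SD. The Mki67 to Foxm1 ratio is 1.004 to 1.85 in Keap1-deleted BAP tumours and 4.18 to 5.94 in Keap1-wildtype BAP tumours.

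Of 115 other genes of the pathway that were tested, 17 were higher (14.8%) and 14 lower (12.2%) in Keap1-deleted BAP than in Keap1-wildtype BAP tumours, against the 20.3% and 20.0% of all genes. Calls were most frequent among 17 Rb, E2F and DREAM regulators, with 5 higher and 6 lower, and among 14 D cyclins, CDK4/6 genes and CDK inhibitors, with 5 higher and 2 lower. Of 39 further replication genes 4 were higher and 1 lower, and of 45 further mitosis genes 3 were higher and 5 lower. The 4 higher genes with the smallest p were E2f6, E2f5, Cdkn1c and Rbbp4. The repressor E2f6 was at 38.6 ± 8.38 CPM in Keap1-deleted BAP and 19.2 ± 1.45 CPM in Keap1-wildtype BAP tumours (log2 1.01, SE 0.18, adjusted p = 0.000533 by edgeR). E2f5, another repressor of the family, was at 24.4 ± 6.85 CPM in Keap1-deleted BAP and 9.69 ± 2.85 CPM in Keap1-wildtype BAP tumours (log2 1.33, adjusted p = 0.00206). The CDK inhibitor gene Cdkn1c ran from 2.47 to 94.0 CPM in Keap1-deleted BAP tumours and averaged 1.24 ± 0.80 CPM in Keap1-wildtype BAP tumours (log2 5.02, SE 1.15, adjusted p = 0.00223). Rbbp4, a histone-binding subunit of DREAM, was at 278 ± 46.3 CPM in Keap1-deleted BAP and 171 ± 38.7 CPM in Keap1-wildtype BAP tumours (log2 0.70, adjusted p = 0.00354).

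The 4 lower pathway genes with the smallest p were Cdc25b, Cdkn1a, E2f8 and E2f7. Cdkn1a, the p21 inhibitor and a p53 target, was at 18.9 to 60.3 CPM in Keap1-deleted BAP tumours, against 274 to 383 CPM in Keap1-wildtype BAP tumours (log2 -2.88, SE 0.49, adjusted p = 0.000402 by edgeR). The CDK-activating phosphatase Cdc25b averaged 34.0 ± 9.44 CPM in Keap1-deleted BAP and 88.3 ± 7.19 CPM in Keap1-wildtype BAP tumours (log2 -1.38, adjusted p = 0.00032). The atypical E2F repressor E2f8 averaged 13.1 ± 5.72 CPM in Keap1-deleted BAP and 38.2 ± 11.8 CPM in Keap1-wildtype BAP tumours (log2 -1.54, adjusted p = 0.00296). The closely related E2f7 averaged 6.60 ± 2.51 CPM in Keap1-deleted BAP and 22.9 ± 7.92 CPM in Keap1-wildtype BAP tumours (log2 -1.79, adjusted p = 0.00361). All 8 of these genes stayed called in the 11 fits without 1 library and under the 9 other settings, library totals included. Of the E2F genes that passed, E2f1, E2f3, E2f5 and E2f6 were higher and E2f2, E2f7 and E2f8 lower in Keap1-deleted BAP tumours. E2f3 averaged 25.7 ± 4.83 CPM in Keap1-deleted BAP and 16.7 ± 3.51 CPM in Keap1-wildtype BAP tumours. E2f2 averaged 7.07 ± 2.70 CPM in Keap1-deleted BAP and 13.5 ± 3.84 CPM in Keap1-wildtype BAP tumours.

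In untreated tumours Keap1 deletion gave no call among the 35 genes by edgeR, where 0.292% of all genes passed. At an unadjusted p under 0.05 there were 11 of the 35 genes, against 17.6% of all genes. A negative value was found for 33 of 35 genes, against 53.3% of all genes. All 19 mitotic genes had a negative log2 fold change, with a median of -0.48, and so had 9 of 10 replication genes (median -0.14) and all 5 G1/S genes (median -0.25), against a median of -0.05 over all genes. With library totals as the only scaling 18 of 19 mitotic and 5 of 10 replication genes were negative, and the mitotic median was -0.35, the replication median 0.01 and that of all genes 0.06. The DESeq2 test called 4 genes lower (Birc5, Cdk1, Cenpf and Mki67), against 4.92% of all genes, and limma-voom with sample weights called 7 lower, against 9.74% of all genes.

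Markers of other cells also differed between the untreated groups, though none of those given here was called. All 10 basal and 8 of 10 differentiated keratinocyte markers had a negative value (medians -0.80 and -0.89 on the log2 scale). All 10 fibroblast, all 10 endothelium and all 10 skeletal muscle markers had a positive value (medians 1.14, 1.19 and 2.02), as had 7 of 10 macrophage markers (median 0.53). The summed fibroblast markers were 3570 to 75800 CPM in Keap1-deleted untreated tumours, against 560.7 to 36930 CPM in Keap1-wildtype untreated tumours, and none of these markers was at 0 in every tumour of a group. The part of these cells in the negative values of the mitotic genes was not tested.

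The 2 mitotic genes with the smallest p were Cenpf and Birc5. Cenpf, a kinetochore protein gene, was at 17.4, 16.3, 15.9, 13.4 and 27.1 CPM in Keap1-deleted untreated tumours 1 to 5, against 25.9, 28.4 and 36.5 CPM (lowest, median and highest) in Keap1-wildtype untreated tumours. All Keap1-deleted untreated tumours except 5 lay below the wildtype range (log2 -0.71, SE 0.19, adjusted p = 0.0937 by edgeR). Birc5 was at 33.8, 28.6, 36.8, 24.2 and 33.4 CPM in Keap1-deleted untreated tumours, against 36.0, 48.0 and 64.3 CPM in Keap1-wildtype untreated tumours (log2 -0.67, SE 0.18, adjusted p = 0.0941 by edgeR). Mki67 was at 87.9, 81.8, 99.0, 52.7 and 133 CPM in Keap1-deleted untreated tumours, against 82.2, 166 and 251 CPM in Keap1-wildtype untreated tumours, with the lowest wildtype value in Keap1-wildtype untreated 6 (log2 -0.90, SE 0.26, adjusted p = 0.105 by edgeR). Without Keap1-wildtype untreated 6, the keratinocyte-poor library, Birc5, Cdk1, Cenpf and Mki67 were called lower, while 14.4% of all genes passed in that fit. The Mki67 value there was -1.04, and over the 11 fits without 1 library it ran from -1.04 to -0.75.

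The G1/S and replication genes showed smaller differences in untreated tumours. Cdk2, the S phase kinase, was at 30.1, 31.9, 31.7, 24.2 and 31.4 CPM in Keap1-deleted untreated tumours, against 35.5, 37.9 and 52.9 CPM in Keap1-wildtype untreated tumours. It was the 1 gene of 35 whose ranges were apart here, against 1.94% of all genes, but it did not pass (log2 -0.43, SE 0.16, adjusted p = 0.172 by edgeR). Ccne2 was at 9.34, 10.1, 10.6, 7.67 and 8.02 CPM in Keap1-deleted untreated tumours, against 8.84, 11.9 and 16.3 CPM in Keap1-wildtype untreated tumours (log2 -0.38, adjusted p = 0.498). Tyms, thymidylate synthase, was at 23.7, 26.0, 23.7, 30.5 and 28.98 CPM in Keap1-deleted untreated tumours, against 26.5, 32.8 and 74.8 CPM in Keap1-wildtype untreated tumours (log2 -0.64, adjusted p = 0.15). Pcna was at 89.5, 71.9, 93.1, 69.7 and 84.4 CPM in Keap1-deleted untreated tumours, against 78.0, 99.1 and 128 CPM in Keap1-wildtype untreated tumours (log2 -0.28, adjusted p = 0.395).

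Cdkn2a and Ccnd1 were not called in untreated tumours. Cdkn2a was at 87.7, 179, 519, 526 and 178 CPM in Keap1-deleted untreated tumours, against 124, 161 and 511 CPM in Keap1-wildtype untreated tumours. Each genotype held both low and high tumours: 2 of the 5 Keap1-deleted untreated tumours and Keap1-wildtype untreated 6 were above 500 CPM (log2 0.38, SE 0.45, adjusted p = 0.674 by edgeR). These were the untreated tumours lowest in summed basal keratinocyte markers. The sums were 2272 and 4426 CPM in Keap1-deleted untreated 3 and 4 and 1299 CPM in Keap1-wildtype untreated 6. The next lowest was 14460 CPM, in Keap1-deleted untreated 2. The part of cell composition in the Cdkn2a levels was not tested. Ccnd1 was at 96.3, 84.3, 131, 106 and 98.2 CPM in Keap1-deleted untreated tumours, against 62.9, 74.9 and 295 CPM in Keap1-wildtype untreated tumours, the highest again in Keap1-wildtype untreated 6 (log2 -0.25, SE 0.45, adjusted p = 0.794). Of the 115 other pathway genes 2 were lower (1.74%, against 0.0781% of all genes) and none higher. These were Tacc3, a spindle protein gene, at 41.2 ± 8.41 CPM in Keap1-deleted untreated and 85.2 ± 29.5 CPM in Keap1-wildtype untreated tumours (log2 -1.05, SE 0.20, adjusted p = 0.034 by edgeR), and Cenpa, the centromeric histone gene, at 38.2 ± 5.49 CPM in Keap1-deleted untreated and 75.3 ± 24.8 CPM in Keap1-wildtype untreated tumours (log2 -0.98, SE 0.20, adjusted p = 0.0418). They stayed called in 5 and 3 of the 11 fits without 1 library. Both were lost without any 1 of Keap1-wildtype untreated 3 and 4 and Keap1-deleted untreated 1, 2, 3 and 4, and Cenpa also without Keap1-wildtype untreated 1 or Keap1-deleted untreated 5.

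The difference between the 2 Keap1 effects was tested as an interaction. It passed for Cdkn2a alone among the 35 genes, against 6.94% of all genes called (2.47% higher and 4.47% lower). The Keap1 effect on Cdkn2a was larger in BAP than in untreated tumours by 2.30 on the log2 scale (SE 0.65, adjusted p = 0.04 by edgeR). The call held in 8 of 22 fits without 1 library (without Keap1-wildtype untreated 1, 2, 3 or 4, Keap1-wildtype BAP 3, Keap1-deleted untreated 3 or 4, or Keap1-deleted BAP 3) and was lost without any other single library. It had values of 1.89 to 2.60 and adjusted p of 0.023 to 0.0922 over these 22 fits, and was also lost without both libraries that stand apart and with no low-count filter. For Mki67 the interaction was -0.48 (SE 0.36, adjusted p = 0.421) and for Ccnd1 0.97 (SE 0.63, adjusted p = 0.344), so a different Keap1 effect in the 2 arms was not shown for them. The smallest p of the other classes were those of Rrm1 (log2 -0.91, adjusted p = 0.0661) and Tyms (0.80, adjusted p = 0.102), of E2f1 (1.52, adjusted p = 0.0681) and Ccne2 (1.15, adjusted p = 0.0793), and of Ccna2 (0.83, adjusted p = 0.0951) and Cdk1 (0.68, adjusted p = 0.106), by edgeR. With library totals as the only scaling 6 genes passed, Ccna2, Ccne2, Cdk1, Cdkn2a, E2f1 and Tyms, all positive, and the median of all genes was 0.43 against 0.10 with TMM. Of the other pathway genes 6 passed as higher and 1 as lower, among them E2f5 (log2 1.86, SE 0.43, adjusted p = 0.0299), the replication kinase gene Cdc7 (1.87, SE 0.47, adjusted p = 0.0301), the condensin gene Smc4 (1.06, SE 0.27, adjusted p = 0.0317), the DNA polymerase gene Pole (1.22, SE 0.32, adjusted p = 0.0345) and, lower, Cdkn1a (-2.83, SE 0.64, adjusted p = 0.0292). All 5 calls were lost without Keap1-deleted untreated 1, 2 or 5 or Keap1-deleted BAP 4, those of Cdc7 and Smc4 also without Keap1-deleted BAP 5, and that of Pole also without Keap1-wildtype BAP 1 or 4 or Keap1-deleted BAP 1 or 2.

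With benzo[a]pyrene 2 of the 35 genes (5.71%) were higher and none lower in Keap1-deleted tumours, against 6.1% of all genes called, 0.943% higher and 5.16% lower. This comparison shares the Keap1-deleted BAP tumours with the comparison of BAP tumours above. Cdk1 was at 92.8, 79.0, 70.1, 58.4 and 101 CPM in Keap1-deleted BAP tumours 1 to 5, against 43.9, 42.1, 69.4, 30.7 and 51.4 CPM in Keap1-deleted untreated tumours 1 to 5. The ranges overlapped because of Keap1-deleted untreated 3 (log2 0.76, SE 0.20, adjusted p = 0.0292 by edgeR). Ccna2 was at 55.5, 79.3, 60.2, 73.1 and 57.1 CPM in Keap1-deleted BAP tumours, against 26.1, 24.5, 43.9, 41.8 and 39.7 CPM in Keap1-deleted untreated tumours. Its ranges were apart (log2 0.88, SE 0.23, adjusted p = 0.0303 by edgeR). Cdk1 stayed called in 4 and Ccna2 in 3 of 10 fits without 1 library, and both were lost with no low-count filter and with only the compared groups in the fit. Cdk1 was lost without Keap1-deleted untreated 1, 2, 4 or 5 or Keap1-deleted BAP 1 or 5, and Ccna2 without Keap1-deleted untreated 1, 2 or 5 or Keap1-deleted BAP 1, 2, 4 or 5.

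**Figure D4:**
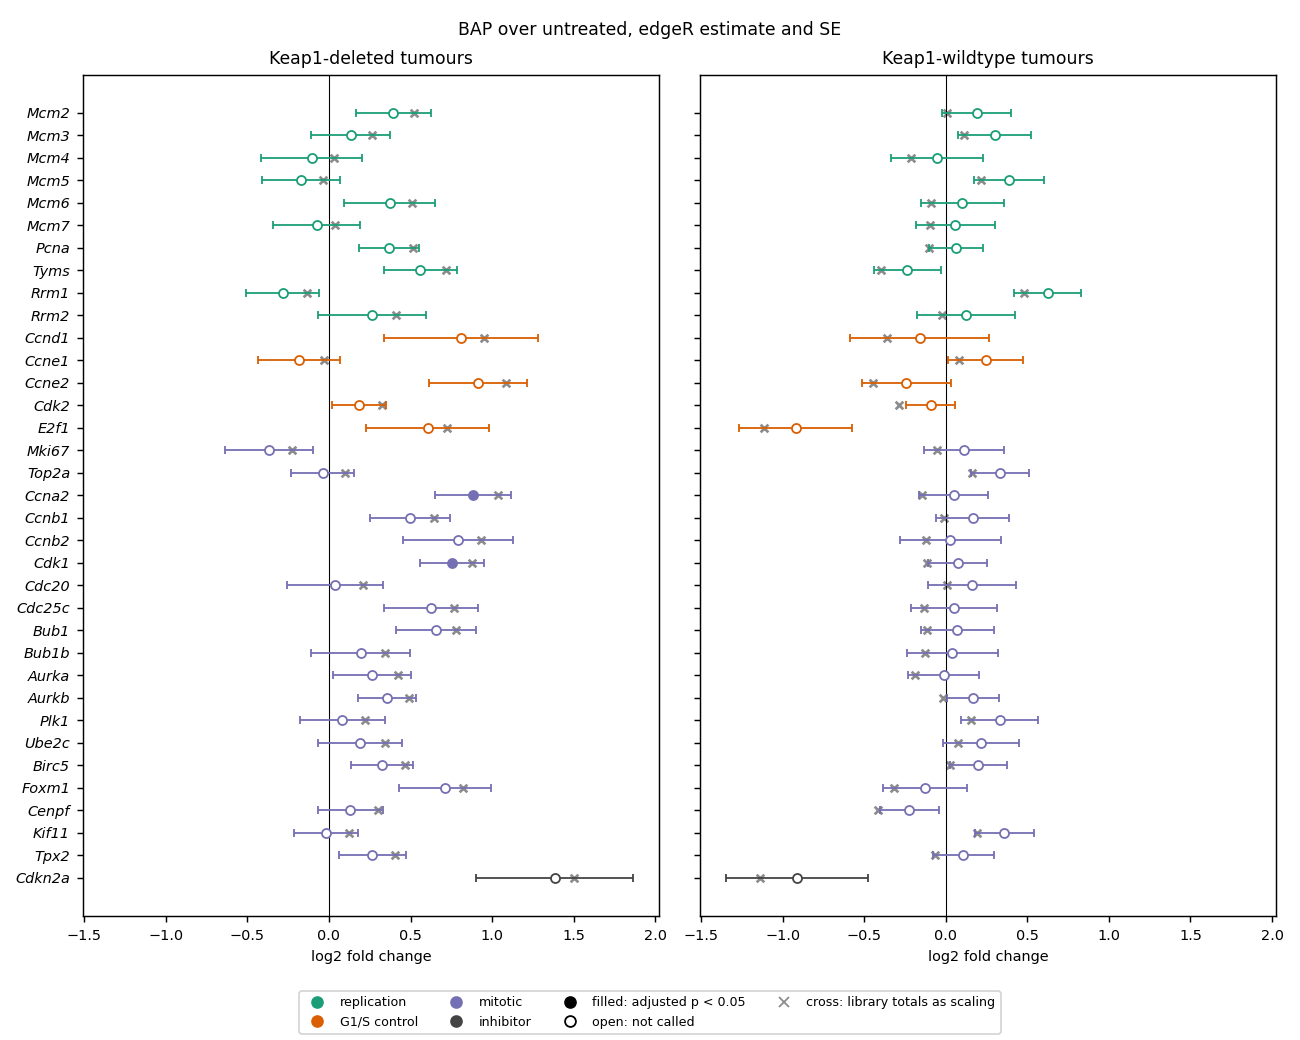
Log2 fold change of each of the 35 genes with its SE (x axis, log2), BAP over untreated, in Keap1-deleted tumours (left) and in Keap1-wildtype tumours (right); filled points passed the test and grey crosses give the value with library totals as the only scaling. In Keap1-deleted tumours Ccna2 at 0.88 and Cdk1 at 0.76 passed, and in Keap1-wildtype tumours no gene did.

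Mki67 did not share this direction. With the values given above, its log2 change with BAP in Keap1-deleted tumours was -0.37 (SE 0.27, adjusted p = 0.496 by edgeR), while 16 of the 19 mitotic genes had a positive value and their median was 0.27, against -0.02 over all genes. With library totals as the only scaling 18 of 19 were positive. Tyms, whose ranges were apart with all Keap1-deleted BAP tumours (33.9 to 47.4 CPM) above all Keap1-deleted untreated tumours (23.7 to 30.5 CPM), had a log2 value of 0.56 (SE 0.23, adjusted p = 0.153), and Pcna had 0.37 (adjusted p = 0.262). Ranges were apart for 2 of the 35 genes, Tyms and Ccna2, against 5.95% of all genes. Ccne2 had 0.91 (SE 0.30, adjusted p = 0.0777), Ccnd1 0.81 (SE 0.47, adjusted p = 0.359) and Cdkn2a 1.38 (SE 0.48, adjusted p = 0.0939), none of them called. Summed basal keratinocyte markers were 180 to 1749 CPM in Keap1-deleted BAP and 2272 to 27840 CPM in Keap1-deleted untreated tumours, so they moved with this comparison too, and their part was not tested.

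Of the 115 other pathway genes 13 were higher (11.3%) and 1 lower (0.87%) with BAP in Keap1-deleted tumours, against 0.943% and 5.16% of all genes. Of the higher ones 8 were among 45 mitosis genes, 3 among 39 replication genes and 2 among 17 regulators. Cenpa was at 74.7 ± 17.2 CPM in Keap1-deleted BAP and 38.2 ± 5.49 CPM in Keap1-deleted untreated tumours (log2 0.97, SE 0.21, adjusted p = 0.0161 by edgeR). The spindle checkpoint gene Mad2l1 was at 54.7 ± 15.1 CPM in Keap1-deleted BAP and 29.3 ± 7.27 CPM in Keap1-deleted untreated tumours (log2 0.90, adjusted p = 0.0172). Smc4 was at 102.5 ± 28.8 CPM in Keap1-deleted BAP and 53.5 ± 10.4 CPM in Keap1-deleted untreated tumours (log2 0.94, adjusted p = 0.0164). The histone mRNA-binding gene Slbp was at 57.8 ± 10.8 CPM in Keap1-deleted BAP and 32.3 ± 5.02 CPM in Keap1-deleted untreated tumours (log2 0.84, adjusted p = 0.0221). Cdkn1a fell, with 43.6 ± 15.2 CPM in Keap1-deleted BAP and 172 ± 111 CPM in Keap1-deleted untreated tumours (log2 -1.98, SE 0.48, adjusted p = 0.0243). All 5 calls were lost without Keap1-deleted BAP 4, and those of Smc4, Mad2l1, Slbp and Cdkn1a also without Keap1-deleted untreated 1. Mad2l1, Slbp and Cdkn1a were lost without Keap1-deleted untreated 5 as well, and Cdkn1a without Keap1-deleted BAP 1 or 5.

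Benzo[a]pyrene in Keap1-wildtype tumours gave no call by edgeR among the 35 genes or the 115 other pathway genes, and 0.0% of all genes passed. At an unadjusted p under 0.05 there were 3 of the 35 and 2622 of all genes. No member passed with the DESeq2 test, which called 892 of all genes, or with limma-voom, which called 0. Rrm1 had the smallest p, with a lowest, median and highest level of 102, 141 and 161 CPM in Keap1-wildtype BAP tumours, against 51.4, 92.4 and 125 CPM in Keap1-wildtype untreated tumours (log2 0.63, SE 0.21, adjusted p = 0.172 by edgeR). E2f1 was at 8.67, 10.8 and 18.8 CPM in Keap1-wildtype BAP tumours, against 14.7, 17.4 and 57.7 CPM in Keap1-wildtype untreated tumours, the last in Keap1-wildtype untreated 6 (log2 -0.92, SE 0.35, adjusted p = 0.233). Cdkn2a was at 63.3, 117 and 201 CPM in Keap1-wildtype BAP tumours, against 124, 161 and 511 CPM in Keap1-wildtype untreated tumours, also highest in Keap1-wildtype untreated 6 (log2 -0.91, SE 0.43, adjusted p = 0.361). All 3 genes had overlapping ranges, and ranges were apart for 0 of the 35 genes, against 0.286% of all genes.

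The mitotic genes had a median log2 value of 0.11 in this comparison, 16 of 19 positive, and the replication genes 0.11, against -0.09 over all genes. With library totals as the only scaling 6 of 19 mitotic genes were positive, both medians were -0.06 and that of all genes was -0.27. Kif11 was at 40.8, 47.3 and 58.1 CPM (lowest, median and highest) in Keap1-wildtype BAP tumours, against 25.0, 39.7 and 45.4 CPM in Keap1-wildtype untreated tumours (log2 0.36, SE 0.18, adjusted p = 0.381 by edgeR). Top2a was at 151, 201 and 216 CPM in Keap1-wildtype BAP tumours, against 118, 158 and 180 CPM in Keap1-wildtype untreated tumours (log2 0.33, adjusted p = 0.42). These are the 2 mitotic genes with the smallest p, and their ranges overlapped. Mcm5 had 0.39 (adjusted p = 0.45) and Ccne1 0.24 (adjusted p = 0.686). Mki67, at 152, 175 and 247 CPM in Keap1-wildtype BAP and 82.2, 166 and 251 CPM in Keap1-wildtype untreated tumours, had 0.11 (SE 0.24, adjusted p = 0.879), and Ccnd1 -0.16 (SE 0.43, adjusted p = 0.904). Cell markers differed here too. All 10 fibroblast, all 10 macrophage and all 10 skeletal muscle markers had a negative log2 value (medians -2.98, -2.87 and -2.64). Few libraries held the high levels. Summed fibroblast markers were 561 to 2744 CPM in Keap1-wildtype untreated 1 to 4, 31090 and 36930 CPM in 5 and 6, and 1024 to 2398 CPM in Keap1-wildtype BAP tumours. Summed macrophage markers were 90.8 to 470 CPM in Keap1-wildtype untreated 1 to 5, 3828 CPM in 6, and 91.4 to 217 CPM in Keap1-wildtype BAP tumours. A positive value was found for 9 of 10 basal and 9 of 10 differentiated keratinocyte markers (medians 0.56 and 0.65). None of these markers was called, and their part in the gene levels was not tested.

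Across the 4 groups the mean level was lowest in Keap1-deleted untreated tumours for 16 of 19 mitotic and 6 of 10 replication genes, and highest in Keap1-wildtype BAP tumours for 11 mitotic and 5 replication genes. The place of the highest mean depended on scaling: with library totals it was in Keap1-deleted BAP tumours for 11 mitotic and 7 replication genes and in Keap1-wildtype BAP tumours for 6 mitotic and 2 replication genes, while the lowest mean was in Keap1-deleted untreated tumours for 15 mitotic and 5 replication genes. With TMM scaling the summed level of the 19 mitotic genes was 978 ± 159 CPM in Keap1-deleted BAP and 819 ± 204 CPM in Keap1-deleted untreated tumours (SD, n = 5 each), against 1286 ± 190 CPM in Keap1-wildtype BAP and 1157 ± 198 CPM in Keap1-wildtype untreated tumours (SD, n = 6 each). The summed level of the 10 replication genes was 715 ± 78.9 and 663 ± 152 CPM in Keap1-deleted BAP and Keap1-deleted untreated tumours, against 843 ± 139 and 742 ± 141 CPM in Keap1-wildtype BAP and Keap1-wildtype untreated tumours. With library totals the order of the BAP groups turned for both sums. The mitotic sum was then 1144 ± 161.5 CPM in Keap1-deleted BAP and 868 ± 238 CPM in Keap1-deleted untreated tumours, against 1102 ± 114.5 CPM in Keap1-wildtype BAP and 1116 ± 131 CPM in Keap1-wildtype untreated tumours. The replication sum was 837 ± 82.7 CPM in Keap1-deleted BAP and 706.5 ± 208 CPM in Keap1-deleted untreated tumours, against 723 ± 92.0 CPM in Keap1-wildtype BAP and 713 ± 94.8 CPM in Keap1-wildtype untreated tumours. Per kilobase of effective length Cdkn2a stood at the top of the 35 genes in every group, at 663 CPM per kb in Keap1-deleted BAP, 254 in Keap1-deleted untreated, 104 in Keap1-wildtype BAP and 195 in Keap1-wildtype untreated tumours, while the gene next in order, Pcna in Keap1-deleted BAP and Cdc20 in the other 3 groups, was at 44.0, 39.8, 69.0 and 61.8 CPM per kb.

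Within a group many mitotic genes were high or low in the same tumours with TMM scaling. Keap1-deleted BAP 2 held the highest level of its group for 13 of 19 mitotic genes, Keap1-deleted untreated 3 for 12, Keap1-wildtype BAP 6 for 11 and Keap1-wildtype untreated 4 for 12. The lowest levels fell to Keap1-deleted BAP 3 for 10, Keap1-deleted untreated 4 for 11, Keap1-wildtype BAP 1 for 8 and Keap1-wildtype untreated 2 for 11 of the 19 genes. With library totals these tumours held the highest level for 10, 12, 5 and 2 and the lowest level for 8, 11, 9 and 6 of the 19 genes, so the leads of Keap1-wildtype BAP 6 and Keap1-wildtype untreated 4 depended on scaling. Replication genes followed the same tumours in part, with 7 of 10 highest in Keap1-deleted untreated 3 and 8 of 10 lowest in Keap1-wildtype untreated 2 with TMM scaling. They did not in Keap1-deleted BAP tumours, where Keap1-deleted BAP 3, which led the count of lowest mitotic levels, was highest for 5 of 10 replication genes, and Keap1-deleted BAP 2 for 2 of 10, with either scaling. With TMM scaling Mki67 was highest in Keap1-deleted untreated 5 and Keap1-wildtype BAP 5 rather than in the tumours that led the class, and in Keap1-deleted BAP 2 and Keap1-wildtype untreated 4, which did lead it. The library labelled Keap1-deleted BAP 2 is the 1 with wildtype-range Keap1, and without it and Keap1-wildtype untreated 6 the comparison of BAP tumours called 10 of the 35 genes. The share of all genes called in that fit is not given here, so the count is not set against all genes.

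**Figure D5:**
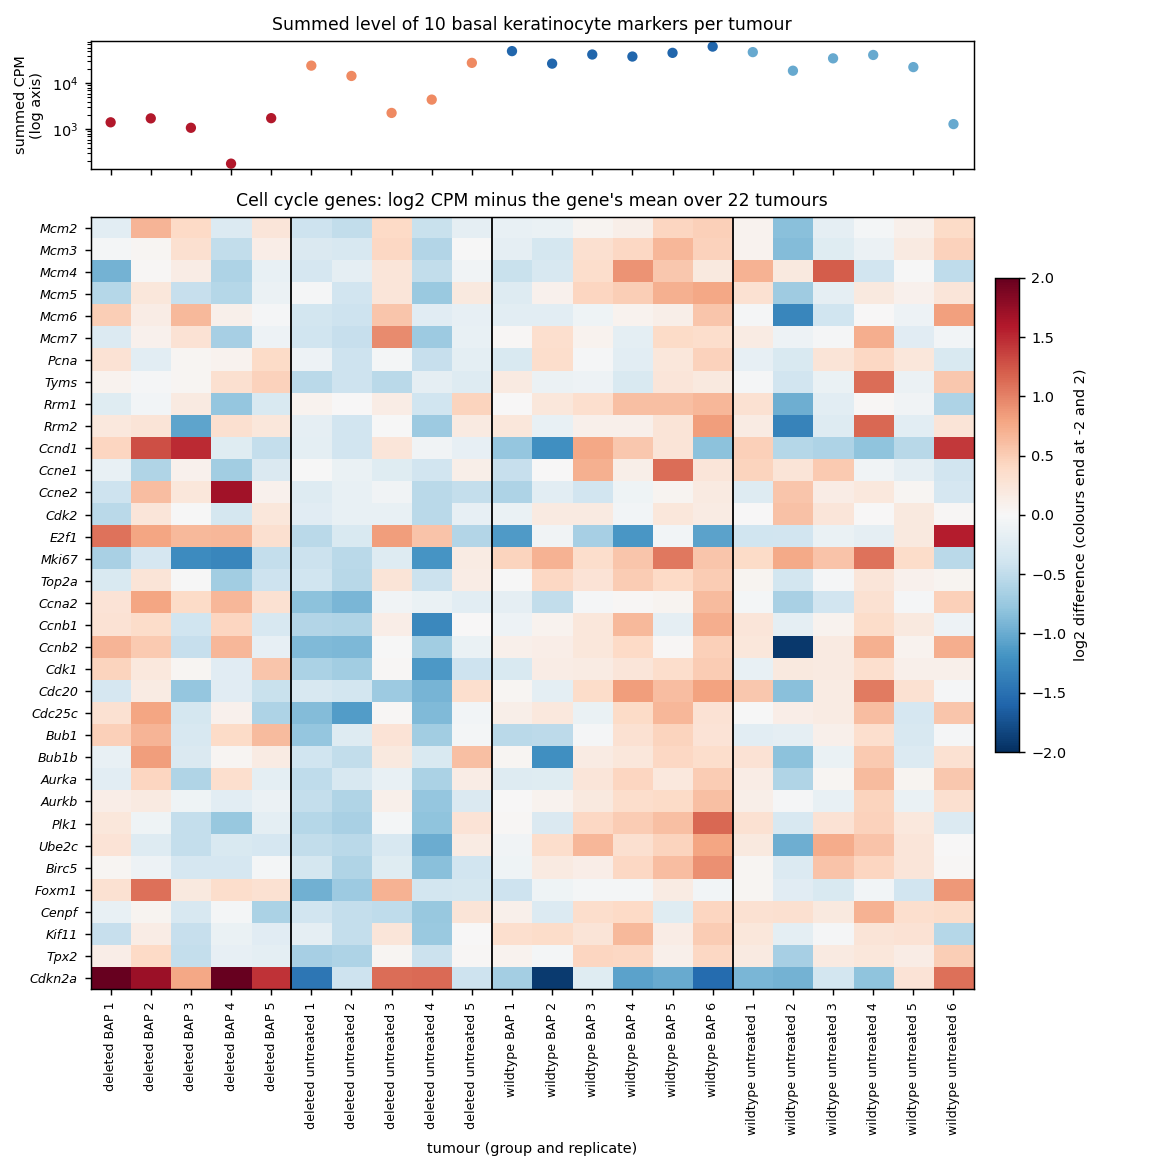
Top, summed TMM-scaled CPM of 10 basal keratinocyte markers in each tumour (log axis); below, log2 CPM of each of the 35 genes (rows, by class) minus its mean over the 22 tumours (columns, by group), with colours ending at -2 and 2. Marker sums are 180 to 1749 CPM in Keap1-deleted BAP tumours, and Keap1-wildtype untreated 6, at 1299 CPM, lies within that range. Keap1-deleted BAP tumours lie above the gene mean for Cdkn2a and below it for Mki67.

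Some counts carry limits of their own. Exons of Ccna2, Ccne2, Cdc20, Ube2c, Ccnd1, Cdk2, Plk1, Cdc25c and Mcm7 overlap a gene on the opposite strand in GENCODE M21, and whether the counting used strand is not given in the sources used here. On the same strand, exons of Foxm1 overlap Gm44596 and Tex52, those of Top2a overlap Gm23451, and those of Mcm7 overlap Mir25 and Mir93. Pcna, Tyms, Ccnb1 and Ccnb2 have named pseudogenes with which reads may be shared. Ube2c overlaps the skeletal muscle gene Tnnc2, and the summed skeletal muscle markers were 20.9 to 1335 CPM in Keap1-deleted BAP tumours, against 6.93 to 85.0 CPM in Keap1-wildtype BAP tumours; their part in the Ube2c counts was not tested.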

How the data were processed

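Per the labels, total RNA of 22 tumours was extracted with a column kit and sequenced as paired-end Illumina libraries. For each Ensembl gene ID the deposited tables, which the authors made with RSEM per the file names, hold an effective length and an expected count, a whole number in all 22 files (tolerance 1e-09). The sources used here name no aligner, genome build, annotation or strand setting. The deposited effective length, another value in bases, was the same in all files and served only for levels per kilobase. Symbols and positions came from GENCODE M21 (GRCm38), matched by ID: 52073 IDs with 99.39% of the counts.

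Samples were grouped by genotype and treatment, and replicates are numbered in accession order. Over 12352 genes the 231 pairs of libraries differed by a chi-square per degree of freedom of at least 96.5, so none was counted as a duplicate. Counts were filtered (filterByExpr, minimum count 10), scaled by TMM and fitted over all 22 libraries with edgeR 4.0.16 (R 4.3.3, robust quasi-likelihood F test); calls are at a Benjamini-Hochberg adjusted p under 0.05 over 19202 genes, and SEs were derived from edgeR's statistics. The edgeR fit was also run on simulated counts with few genes changed, up and down alike. That setting does not test the scaling of the BAP comparison, where 40.3% of all genes were called. Alternatives used limma 3.58.1, DESeq2 1.42.0, other scalings and filters, only the compared groups, the R at the end of some sample titles as a covariate, and left-out libraries.

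The members and lists were chosen with earlier results of these data known. Named in each comparison are up to 4 called members per class by smallest p, otherwise the 2 with the smallest p as values; Mki67, Ccnd1 and Cdkn2a always; and up to 4 called pathway genes per direction. Foxm1, E2f2 and E2f3 in the comparison of BAP tumours, and genes that passed only under an alternative, were named after their values were seen. Lin54 of the pathway lists was not matched.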

Additional observations from a re-analysis of the deposited data

Results flagged for a closer look

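A tumour stood far from the others of its group in 17 of 140 sets of 1 gene in 1 group (gap over range above 0.71 for 5 and 0.625 for 6 tumours). Chance would flag about 1 in 20, or 7 sets, if levels were normally distributed and the sets independent. The sets share the same tumours, so 17 against 7 does not measure an excess over chance. In Keap1-deleted BAP tumours Rrm2 was lowest in tumour 3, at 27.2 CPM against 65.6 to 70.5 in the others, Ube2c was highest in tumour 1, at 78.9 CPM against 47.3 to 54.9, and Foxm1 was highest in tumour 2, at 79.9 CPM against 42.6 to 47.8.

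In Keap1-deleted untreated tumours 4 genes were highest in tumour 3: Mcm2 at 81.3 CPM (others 43.5 to 54.4), Mcm6 at 105 CPM (53.9 to 64.1), Mcm7 at 171 CPM (53.8 to 80.1) and Foxm1 at 60.1 CPM (19.2 to 29.3). Cdk2 was lowest in tumour 4, at 24.2 CPM (30.1 to 31.9), and Cenpf highest in tumour 5, at 27.1 CPM (13.4 to 17.4).

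In Keap1-wildtype BAP tumours Mcm6, at 105 CPM (61.8 to 77.5), and Rrm2, at 101 CPM (51.2 to 67.5), were highest in tumour 6, and Bub1b was lowest in tumour 2, at 14.8 CPM (35.8 to 46.4). In Keap1-wildtype untreated tumours E2f1, at 57.7 CPM (14.7 to 22.1), and Foxm1, at 67.8 CPM (28.7 to 38.5), were highest in the keratinocyte-poor tumour 6. Mcm7, at 147 CPM (76.2 to 99.5), and Cenpf, at 36.5 CPM (25.9 to 29.3), were highest in tumour 4, and Cdk2 in tumour 2, at 52.9 CPM (35.5 to 41.5).

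The Keap1 effect on Cdkn2a differed between BAP and untreated tumours by the test of the interaction, by 2.30 on the log2 scale (adjusted p = 0.04 by edgeR). As given above, the call was lost in most fits without 1 library. It was also lost with no low-count filter and without both libraries that stand apart.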

How the results depend on the processing

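Among the 35 genes, no call changed direction under the alternatives run. Leaving out each compared library in turn gave 4 to 12 calls between the BAP groups (13 with all libraries), 0 to 4 between the untreated groups, 0 to 5 for BAP in Keap1-deleted tumours (2 with all), 0 to 0 for BAP in Keap1-wildtype tumours and 0 to 4 for the interaction (1 with all). For these ranges the shares of all genes called are not given here, so they do not show a change particular to the 35 genes. Each count below is given with the share of all genes called in the same fit, unless stated. Without a low-count filter, which tests 35543 genes, the counts were 7 between the BAP groups (19.7%), 0 for BAP in Keap1-deleted tumours (1.12%) and 0 for the interaction (0.312%). The DESeq2 test gave 4 calls between the untreated groups (4.92%), 4 for BAP in Keap1-deleted tumours (11%) and 5 for the interaction (15.7%), and limma-voom gave 7 (9.74%), 9 (16.7%) and 4 (8.55%). Library totals gave 6 calls for the interaction (9.23%), and the R covariate gave 4 (15.7%). With only the compared groups there were 0 for BAP in Keap1-deleted tumours (2.05%). Without both libraries that stand apart there were 4 calls between the untreated groups (12.9%) and 0 for the interaction (6.44%). The causes were not tested. Between the BAP groups Cdkn2a, E2f1 and Mki67 passed under all 9 other settings. Library totals called 10 genes higher and 1 lower there, as given above without a share of all genes. No paired analysis was possible because the labels give no replicate numbers that pair tumours across groups. The lowest library total was 29235010 counts, and all 35 genes passed the filter on low counts.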
